A study of Homo sapiens with 6 samples.

Results

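The genes described here are those expressed in wild-type (WT) CD31+ cells at day 8 of the hematopoietic differentiation of H1, an established human embryonic stem cell line. A gene was counted as expressed when it reached at least 1 FPKM (fragments for each kilobase of a transcript, relative to all mapped fragments of the library, a level per length that can be set side by side between genes) in both of the 2 WT libraries. Of the 56595 gene symbols in the table, 12812 met this rule, which is 22.6% of the symbols. Among the 19500 symbols that GENCODE lists as protein-coding, 11436 met it, or 58.6%. That share is the background for the counts of expressed genes in the lists below.

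The series holds RNA-seq of 6 libraries, 2 from WT cells and 4 from MSX2-/- cells edited with CRISPR-Cas9, and the MSX2-/- libraries were not used. For the WT cells the labels name no edit and no added agent beyond the medium. The medium held activin A and BMP4 in the first step and VEGF and bFGF in the second. The growth protocol of the labels also mentions HAND1 as overexpressed in some cells. CD31 is the surface protein encoded by PECAM1. For the WT samples it is the text of the study that speaks of CD31+ cells, since only the MSX2-/- samples carry that word in their labels. The labels do not say whether the 2 WT libraries came from separate cultures, so the spread between them may be technical, and in bulk RNA a small share of cells with a high level cannot be told apart from many cells with a low level.

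Blood cells of the embryo arise from hemogenic endothelium, a specialized endothelium that loses its junctions and vessel genes and gains blood genes in the endothelial-to-hematopoietic transition (EHT). RUNX1, together with GATA2 and TAL1, directs this step, and the SOX17 family, NOTCH and TGF-beta signaling also act on it. CD31 marks endothelium and stays on early hematopoietic progenitors, so a CD31+ sort can hold both.

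The 4 genes used as markers of the cells were all above the cut-off in both libraries. Of these only PECAM1 encodes the antigen by which the cells were collected. CDH5, the adhesion protein of endothelial junctions, was at 423 and 379 FPKM in replicates 1 and 2, and PECAM1 itself was at 258 and 218 FPKM. CD34, a sialomucin of endothelium and progenitors, was at 161 and 269 FPKM. Their means were 401 ± 30.9, 238 ± 28.3 and 215 ± 76.8 FPKM (SD, n = 2). These 3 genes lay in the highest 3.07% of the 12812 expressed genes, and their library values were within 2-fold of each other. RUNX1 was lower, at 11.2 and 25.4 FPKM, with a mean of 18.3 ± 10.04 FPKM (SD, n = 2). It was 2.27-fold higher in replicate 2 and ranked 4886th by its mean. The endothelial markers were thus among the highest genes and the blood factor RUNX1 nearer to the middle of the range. RUNX1 encodes a transcription factor, and the 355 expressed factors and cofactors described below had a median of 14.7 FPKM.

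**Figure D1:**
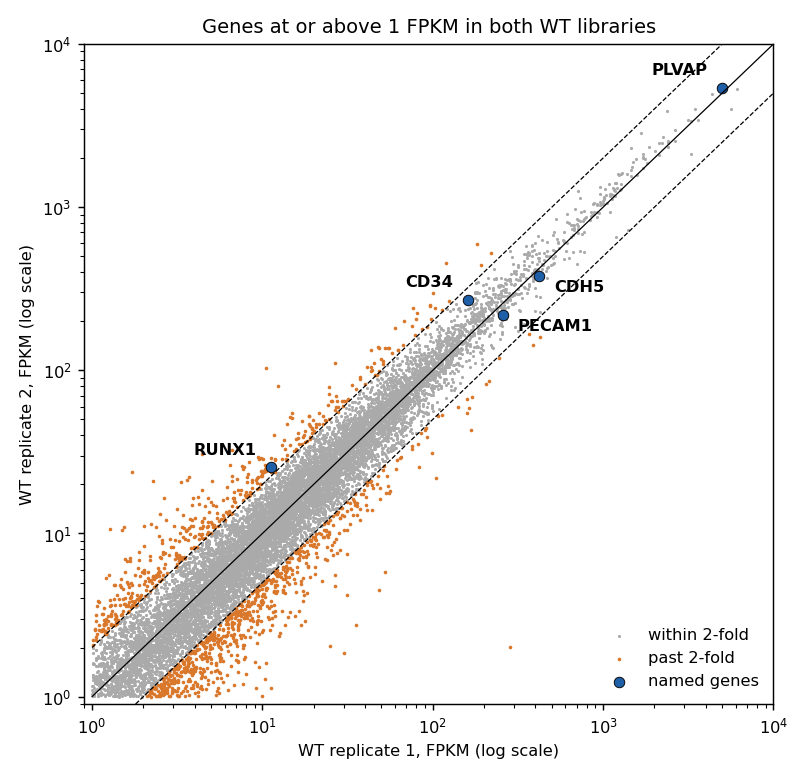
Level of each of the 12812 genes at or above 1 FPKM in both libraries in WT replicate 1 (x axis, FPKM, log scale) against WT replicate 2 (y axis, FPKM, log scale). The solid line marks equal levels, the dashed lines 2-fold differences, and the orange points genes past them. PLVAP, CDH5, PECAM1 and CD34 lie within the lines and RUNX1 just above the upper line.

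Promoters are shown for the highest endothelial gene, for the markers CD34 and RUNX1, and for the EHT factors GATA2 and TAL1. These genes were picked by hand, and only 1 start of each is shown. RefSeq (GRCh38.p14) gives the 250 bases before the first listed start of each gene, printed below 5′ to 3′ on the sense strand, which is the minus strand of the chromosome for all 5. PECAM1 and CDH5 had no entry. Capitals mark the letters of the motifs searched on both strands, which were the TATA box TATAAA, the CCAAT box, the GC box GGGCGG, the ETS core CCGGAA, the GATA motif GATAA, the E-box CACGTG, the AP-1 motif TGACTCA and the RUNX motif TGTGGT.
PLVAP, chr19:17377343-17377592: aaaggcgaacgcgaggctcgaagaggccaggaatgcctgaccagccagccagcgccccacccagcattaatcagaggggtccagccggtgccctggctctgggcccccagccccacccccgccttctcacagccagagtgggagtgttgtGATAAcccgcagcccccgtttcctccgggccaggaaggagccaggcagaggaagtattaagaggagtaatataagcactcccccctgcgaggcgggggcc
CD34, chr1:207911126-207911375: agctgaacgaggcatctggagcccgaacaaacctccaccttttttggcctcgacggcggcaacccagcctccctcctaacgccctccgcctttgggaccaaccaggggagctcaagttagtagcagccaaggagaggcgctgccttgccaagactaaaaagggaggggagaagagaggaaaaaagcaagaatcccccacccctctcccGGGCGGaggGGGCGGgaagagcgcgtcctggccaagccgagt
RUNX1, chr21:34888700-34888949: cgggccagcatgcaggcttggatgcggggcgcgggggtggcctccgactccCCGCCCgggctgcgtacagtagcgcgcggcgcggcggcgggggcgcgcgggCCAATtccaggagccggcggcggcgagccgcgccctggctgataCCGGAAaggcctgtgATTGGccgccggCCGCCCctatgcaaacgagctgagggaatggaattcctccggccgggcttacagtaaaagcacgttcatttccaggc
GATA2, chr3:128493202-128493451: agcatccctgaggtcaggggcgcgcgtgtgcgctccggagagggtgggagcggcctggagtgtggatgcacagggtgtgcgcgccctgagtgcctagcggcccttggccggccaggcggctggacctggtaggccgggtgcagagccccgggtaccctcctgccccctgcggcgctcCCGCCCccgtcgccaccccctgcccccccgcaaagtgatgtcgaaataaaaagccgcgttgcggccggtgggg
TAL1, chr1:47232336-47232585: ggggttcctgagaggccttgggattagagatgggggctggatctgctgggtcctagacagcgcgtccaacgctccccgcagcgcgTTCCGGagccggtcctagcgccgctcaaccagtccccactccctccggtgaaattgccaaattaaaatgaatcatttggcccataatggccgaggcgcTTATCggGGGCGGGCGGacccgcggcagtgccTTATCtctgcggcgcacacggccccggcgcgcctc

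The PLVAP promoter held 1 match, GATAA, beginning 100 bases before the start, and 20.97% of the 27305 promoters in the table hold that motif in a window of the same length. CD34 held GGGCGG at 42 and at 33 bases before the start. RUNX1 and TAL1 held 5 matches each. In RUNX1 these were CCAAT at 148 and, on the other strand, at 89, the ETS core CCGGAA at 104, and GGGCGG at 199 and at 77 bases, both on the other strand. GATA2 held GGGCGG at 73 bases, on the other strand. TAL1 held GATAA at 67 and 35 bases and CCGGAA at 165 bases, each on the other strand, and GGGCGG at 60 and 56 bases, which overlap. The ETS core stood in 14.8% of all promoters, CCAAT in 33.0% and GGGCGG in 42.3%. A match describes letters in the window and is not a bound site.

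Across levels, promoters of expressed genes were rich in CpG. The 11423 protein-coding genes outside the mitochondrial genome were split by mean FPKM into 4 groups of like size, and from 80.98% to 84.0% of each group had a promoter in the table. The median ratio of observed to expected CpG was 0.782 in the lowest group, 0.832 and 0.839 in the groups above it and 0.845 in the highest, against 0.556 over all promoters. GGGCGG stood in 61.6%, 68.9%, 70.5% and 71.3% of the promoters in the same order, and GATAA in 14.3%, 11.8%, 11.4% and 10.9%. The expressed genes of each group thus held GGGCGG more often, and GATAA less often, than the table as a whole. The 27305 promoters of the table were not limited to protein-coding genes, as the groups were. Gene class and expression therefore cannot be told apart in the contrast with all promoters. The same shares for the endothelial, arterial, hemogenic, erythroid and cell cycle lists are void, because fewer than 80% of their expressed genes had a promoter.

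The transcriptome of these cells was led by housekeeping transcripts and by 1 endothelial gene. The median level of the expressed genes was 11.9 and 11.6 FPKM in replicates 1 and 2. The mean reached 10 FPKM in 7044 genes, 100 FPKM in 944 and 1000 FPKM in 74. The 25 highest genes held 13.6% and 13.5% of the summed FPKM. The 13 mRNAs of the mitochondrial genome held 5.24% and 4.68%, and 83 ribosomal protein genes 15.2% and 16.2%.

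MT-CO1, a subunit of cytochrome oxidase, was the highest gene at 6074 and 5273 FPKM, followed by MT-ATP8 at 4973 and 5668 FPKM. PLVAP, which forms the diaphragms of endothelial fenestrae and caveolae, came next at 5015 and 5408 FPKM. Of the 25 highest genes, 6 were mitochondrial mRNAs, with MT-CO2, MT-ND3, MT-ATP6 and MT-CO3 beside those above, and 10 encoded ribosomal proteins, led by RPS27 at 3482 and 3984 FPKM and RPL31 at 3143 and 3397 FPKM. The others were RN7SL2 at 5659 and 3968 FPKM and RN7SL1 at 3286 and 2127 FPKM, which are RNAs of the signal recognition particle, the pseudogene AL162151.2, the translation factor EEF1A1 at 3265 and 3362 FPKM, TMSB10, TMSB4X, the actin gene ACTG1 at 1672 and 2857 FPKM and GAPDH. RN7SL1 and RN7SL2 are near-identical copies, a pseudogene can share fragments with its parent, and MT-ATP8 overlaps MT-ATP6, so these levels are uncertain. PLVAP was the only gene of the pan-endothelial list among the 25. TMSB10 at 4333 and 4906 FPKM and TMSB4X at 2412 and 2471 FPKM encode thymosins, which bind actin monomers.

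Among the genes outside the mitochondrial, ribosomal, small RNA and pseudogene classes, PLVAP and genes of the cytoskeleton, translation and other general functions came first. Several genes of secreted proteins stood below these, with IGFBP2 ranked 68th of all expressed genes. IGFBP2 at 1049 and 1065 FPKM and IGFBP4 at 1005 and 1049 FPKM bind insulin-like growth factors. SPARC, a matrix protein that binds collagen, was at 941 and 926 FPKM, and MDK, the growth factor midkine, at 772 and 708 FPKM. VIM, the intermediate filament of mesenchymal and endothelial cells, was at 1101 and 1169 FPKM and FSCN1, an actin bundler, at 917 and 1024 FPKM. In each of these 6 genes the 2 libraries differed by less than 1.5-fold.

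Pan-endothelial genes were expressed almost without exception. Of 36, 35 were expressed, all 35 at 10 FPKM or more in both libraries and 16 at 100 FPKM or more, with a median over the list of 98.6 and 130.5 FPKM. PLVAP was separated from the next gene, EGFL7, a secreted vascular protein, at 710.1 and 1248 FPKM. The VEGF receptor KDR was at 666 and 779 FPKM, the angiopoietin co-receptor TIE1 at 505 and 446 FPKM, and RAMP2, which pairs with the adrenomedullin receptor, at 393 and 372 FPKM. ESAM, an adhesion protein of the junctions, was at 318 and 429 FPKM. Lower in the list stood VWF, a clotting protein that endothelium stores, at 26.7 and 31.1 FPKM and THBD, thrombomodulin, at 25.7 and 26.3 FPKM. VCAM1, an adhesion molecule of activated endothelium, was at 0.0867 and 0.0399 FPKM and was the 1 gene of the list under the cut-off. SELE, another cytokine-induced adhesion molecule, was expressed at 19.1 and 18.7 FPKM. In the order of the list, 28 of the 35 pairs of neighbours had library values that overlapped, so the order of most neighbours is not resolved by 2 libraries.

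Of 24 arterial and NOTCH genes, 21 were expressed. The median over all 24 was 92.7 FPKM in replicate 1 and 56.0 FPKM in replicate 2, against 98.6 and 130.5 FPKM for the pan-endothelial list. The gap junction genes GJA4 at 728 and 535 FPKM and GJA5 at 425 and 161 FPKM, which are markers of arteries, and the NOTCH ligand DLL4 at 345 and 192 FPKM led the list. NOTCH1 was at 251 and 193 FPKM, NOTCH4 at 67.3 and 39.7 FPKM and NOTCH2 at 3.57 and 2.42 FPKM, so that the receptors ranged widely. The NOTCH targets HES4 at 245 and 118 FPKM, HEY1 at 85.6 and 46.1 FPKM, HEY2 at 30.6 and 27.5 FPKM and HES1 at 18.8 and 52.8 FPKM were expressed as well. CXCR4, the receptor of the chemokine CXCL12, was at 163 and 59.2 FPKM. EFNB2, the arterial ephrin ligand, was at 223 and 139.6 FPKM. In this list 3 genes were under the cut-off in a library, DLL1 at 2.76 and 0.692, FBLN5 at 0.0535 and 0.723 and BMX at 0.318 and 0.217 FPKM.

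Of 16 venous and lymphatic genes, 10 were expressed, a share near the 58.6% of all protein-coding genes. Of the 10, 5 were at 100 FPKM or more in both libraries. The apelin receptor APLNR, a gene of lateral mesoderm and of veins, was at 329 and 391 FPKM, and EPHB4, the venous receptor of EFNB2, at 222 and 269 FPKM. FLT4, the receptor of VEGF-C in lymphatic endothelium, was at 256 and 172 FPKM and NRP2, a neuropilin of veins and lymphatics, at 123 and 181 FPKM. NR2F2, the factor that specifies veins, was at 26.4 and 25.5 FPKM. Other lymphatic genes of the list were near or under the cut-off, with the lymphatic factor PROX1 at 2.21 and 1.98 FPKM, LYVE1 at 1.28 and 0.758 FPKM and PDPN at 0.388 and 0.566 FPKM. STAB2, CCL21, RELN and ACKR1 were also under 1 FPKM in both libraries. Arterial and venous genes were thus present in the same bulk RNA, and whether in the same cells was not measured.

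Genes of hemogenic endothelium and of EHT were expressed in 39 of 41 cases, with a median over all 41 of 33.6 and 32.4 FPKM. The highest 6 were FLI1, TCF3, SOX18, CD34, LMO2 and SOX7. FLI1, an ETS factor of endothelium and blood, was at 363 and 415 FPKM, and TCF3, the partner of TAL1, at 317 and 440.3 FPKM. LMO2, the bridge of the TAL1 complex, was at 141 and 237 FPKM, LYL1 at 92.7 and 104 FPKM, LDB1 at 133 and 153 FPKM, GATA2 at 55.8 and 59.7 FPKM and TAL1 at 33.6 and 42.1 FPKM. TCF3 and the 5 genes from LMO2 to TAL1 were above 30 FPKM in both libraries, whereas CBFA2T3, a corepressor of the same complex, was at 4.63 and 14.7 FPKM. GATA2 shares its locus with an antisense transcript, and the use of strand in counting is not given in the sources used here.

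RUNX1 stood below its partner CBFB, at 51.8 and 75.4 FPKM. GFI1, a repressor of endothelial genes, was at 3.86 and 3.97 FPKM and its relative GFI1B at 2.698 and 6.505 FPKM, whereas their corepressor KDM1A was at 49.9 and 49.9 FPKM. SPI1, the myeloid factor PU.1, was at 13.6 and 23.6 FPKM, and MYB, which definitive progenitors need, at 11.3 and 12.7 FPKM. KIT, the receptor of stem cell factor, was at 12.2 and 5.94 FPKM, ITGA2B, the CD41 antigen, at 26.6 and 38.5 FPKM and SPN, the CD43 antigen that marks the first blood progenitors, at 6.19 and 11.3 FPKM. PTPRC, the pan-leukocyte antigen CD45, was at 0.011 and 0.0258 FPKM, and HLF, a factor of hematopoietic stem cells, at 0.337 and 0.0664 FPKM. These 2 were the only genes of the list under the cut-off. The early blood markers CD41 and CD43 were present and CD45 was at most 0.0258 FPKM. MECOM, another stem cell factor, was at 63.96 and 52.7 FPKM and ETV2, which starts the endothelial program, at 1.56 and 5.82 FPKM.

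Genes of differentiated blood cells were expressed in part. Of 30 erythroid genes, 19 were expressed, a share near the 58.6% of all protein-coding genes, and none was at 100 FPKM in both libraries. The membrane protein gene GYPC was the highest at 81.7 and 83.7 FPKM. Among the globins HBG2 was at 51.7 and 37.3 FPKM, the embryonic HBE1 at 36.6 and 24.4 FPKM and the embryonic HBZ at 4.11 and 8.32 FPKM, whereas HBG1 was at 0.531 and 0.571 FPKM and HBA1 at 1.203 and 0.931 FPKM. HBG1 and HBG2 are near-identical copies, as are HBA1 and HBA2, so the split within each pair is uncertain. GATA1 at 7.68 and 8.895 FPKM, KLF1 at 9.78 and 12.3 FPKM and the heme enzyme ALAS2 at 7.48 and 9.28 FPKM were expressed. Genes of later red cells were under the cut-off, among them the band 3 gene SLC4A1 at 0.0134 and 0 FPKM and SPTB at 0.224 and 0.502 FPKM, and AHSP and HBM were listed at 0 in both libraries.

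Of 22 megakaryocyte genes, 13 were expressed, a share near the 58.6% of all protein-coding genes. Those above 10 FPKM in both libraries, F2R, ITGA2B, MMRN1, VWF and NFE2, are genes that endothelium or early progenitors also use. F2R, the thrombin receptor, led at 193 and 174 FPKM. PF4, a platelet granule chemokine, was at 2.26 and 3.41 FPKM, GP9 at 1.62 and 1.56 FPKM, PPBP at 0.213 and 0 FPKM and TUBB1 at 0.269 and 0.274 FPKM. The platelet genes thus lay within a few FPKM of the cut-off.

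Myeloid and lymphoid genes had the smallest share expressed among the blood lists, 9 of 32. AIF1, a protein of macrophages, was at 17.01 and 20.5 FPKM, FCER1G, the signaling chain of Fc receptors, at 7.09 and 21.6 FPKM and its relative TYROBP at 9.45 and 12.1 FPKM. MPO, ELANE and PRTN3, which encode granule enzymes of neutrophils, were listed at 0 in both libraries, as were the lymphoid genes CD3E, MS4A1, CD2 and DNTT and the mast cell gene TPSAB1. CD79B at 16.8 and 9.75 FPKM stood apart from its B-cell partner CD79A at 0.912 and 0.78 FPKM. Among 29 surface antigens of progenitors and leukocytes, 19 were expressed, beside 58.6% of all protein-coding genes. THY1, the CD90 antigen, which endothelium and mesenchyme share, led these antigens at 687 and 978 FPKM. LAPTM5, a lysosomal protein of blood cells, was at 53.3 and 96.4 FPKM and the kinase BTK at 17.9 and 18.7 FPKM. The cytokine receptor genes EPOR at 27.4 and 16.3 FPKM and CSF2RB at 10.7 and 6.65 FPKM were expressed. FLT3, IL3RA and CSF2RA were listed at 0. Whether fragments of these genes went uncounted is not given in the sources used here.

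Transcription factors were examined across families, with 619 factors and cofactors of a chosen list found in the table. The list is not a full catalogue, with 76 zinc finger genes outside the other families, so the shares describe the list. Of the 619 genes, 355 were expressed, or 57.4%, close to the 58.6% of all protein-coding genes. In both libraries 27 were at 100 FPKM or more. The share expressed was 91.7% of 12 SMAD and TEAD genes, 88.9% of 9 GATA genes, 83.3% of 48 bZIP genes and 70.4% of 27 ETS genes. It was 40.5% of 37 forkhead genes, 39.0% of 100 homeobox genes outside the HOX clusters, 23.1% of 39 HOX genes and 20.0% of 15 T-box genes. YBX1, a DNA- and RNA-binding cold shock protein, was the highest at 644 and 780.2 FPKM, and FLI1 was second.

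**Figure D2:**
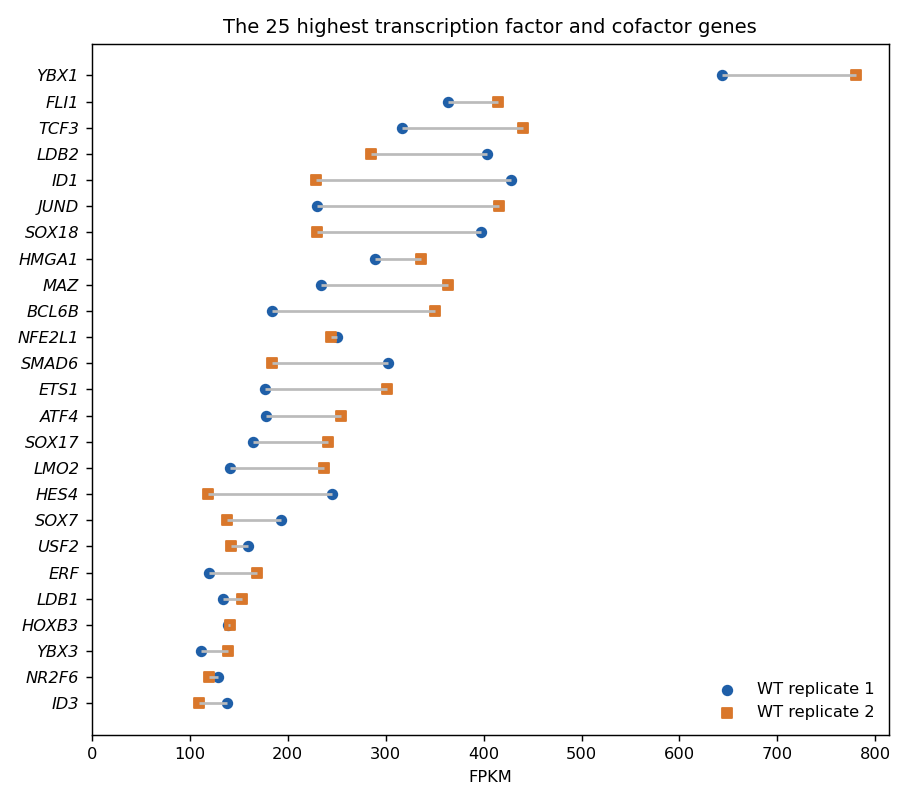
The 25 transcription factor and cofactor genes of the list with the highest mean (rows). Points give their level in WT replicate 1 (circles) and WT replicate 2 (squares), in FPKM on a linear axis from 0. YBX1 stands apart above 600 FPKM in both libraries, and the other 24 lie between 109 and 440 FPKM.

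Many of the 25 highest factors of the list are known from endothelium. LDB2 was at 404 and 285 FPKM, BCL6B at 184 and 349.9 FPKM, ETS1 at 177 and 301 FPKM and ERF, an ETS repressor, at 119.5 and 169 FPKM. All 3 members of the SOXF family, which specify endothelium and arteries, were in the list, SOX18 at 398 and 229.7 FPKM, SOX17 at 165 and 241 FPKM and SOX7 at 193 and 138 FPKM. The library values of SOX18 and SOX17 overlapped, as did those of SOX17 and SOX7, so the order of these neighbours is not resolved. ID1, an inhibitor of bHLH factors and a BMP target, was at 428 and 229 FPKM, its relative ID3 at 137 and 109 FPKM and the inhibitory SMAD6 at 302 and 184 FPKM. General factors made up most of the others. The AP-1 subunit JUND was at 229.9 and 415 FPKM, the chromatin protein HMGA1 at 289 and 336 FPKM and ATF4, a factor of the stress response, at 178 and 254 FPKM. MAZ, NFE2L1, USF2, YBX3 and NR2F6 completed the group, all above 100 FPKM in both libraries.

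HOX genes, which specify position along the body axis, were expressed from 1 cluster almost alone. Of the 9 expressed, 8 were HOXB2 to HOXB9, and the ninth was HOXA9 at 1.02 and 2.08 FPKM. HOXB3 was the 1 HOX gene among the 25 highest factors, at 139 and 141 FPKM. The other expressed HOXB genes ranged from HOXB6 at 39.6 and 36.1 FPKM to HOXB4 at 10.6 and 8.05 FPKM. HOXB1 at 0.106 and 0 FPKM and HOXB13 at 0.285 and 0.0138 FPKM, the outermost genes of the cluster, were under the cut-off. All HOXC genes were under 0.2 FPKM in both libraries, and HOXD1 at 3.99 and 0.336 FPKM was the only HOXD gene above 1 FPKM in a library. Within the HOXA cluster, HOXA10 was at 0.515 and 0.67 FPKM, HOXA7 at 0.22 and 0.213 FPKM and HOXA5 at 0.069 and 0 FPKM. Genes of the HOXB cluster lie close together and share transcripts, and how their fragments were divided is not given in the sources used here.

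**Figure D3:**
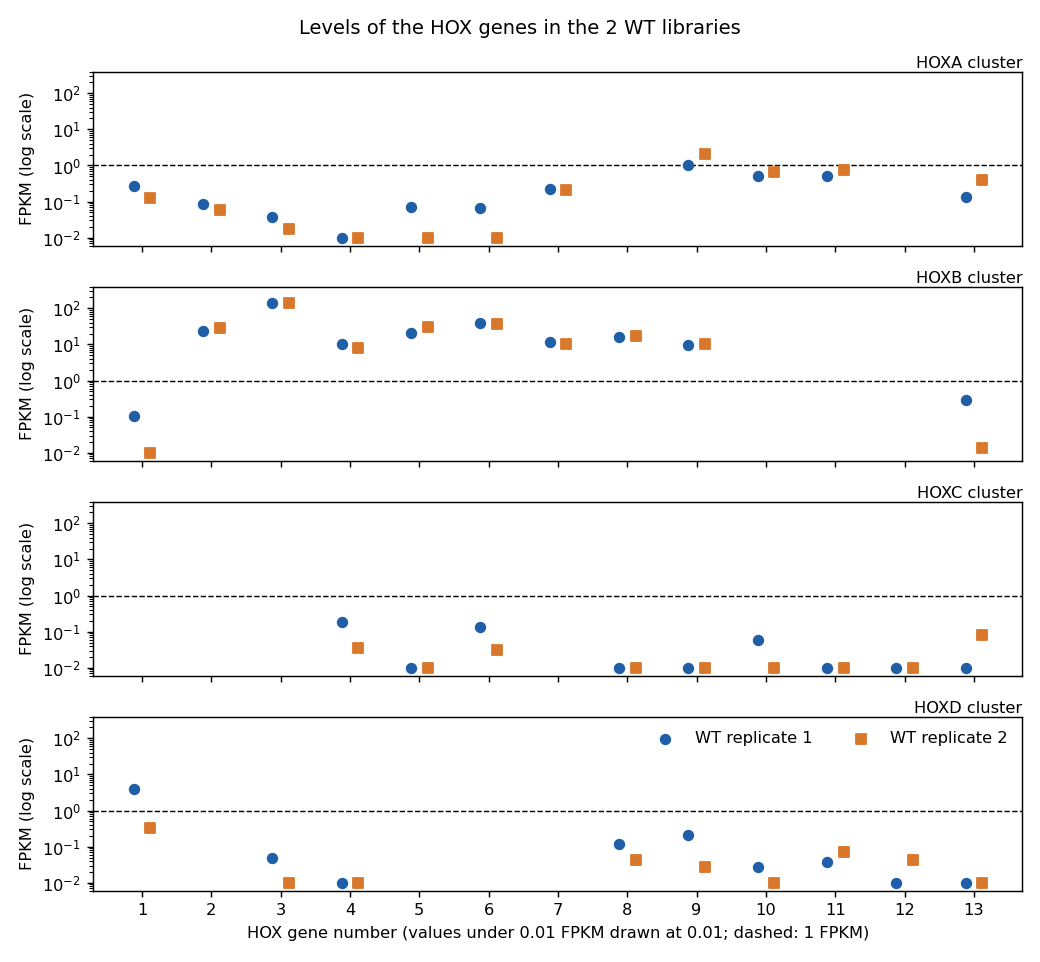
Level of each HOX gene in WT replicate 1 (circles) and WT replicate 2 (squares), in FPKM on a log axis with values under 0.01 drawn at 0.01, by gene number (x axis) and cluster (panels). HOXB2 to HOXB9 lie above the dashed line of 1 FPKM in both libraries, with HOXB3 highest at 139 and 141 FPKM, whereas the other clusters lie mostly below it.

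Of 36 mesodermal genes, 16 were expressed, and the highest was APLNR, given above, which also marks early mesoderm. Among those under the cut-off in at least 1 library were T (brachyury), a gene of the primitive streak, at 0.226 and 0 FPKM, MESP1 at 0.64 and 0.126 FPKM, EOMES at 0.38 and 0.113 FPKM and MIXL1 at 1.38 and 0.711 FPKM. The heart factor TBX5 was at 0 and 0.0228 FPKM. The expressed factors included MEF2C at 46.6 and 93.1 FPKM, FOXC1 at 65.6 and 44.4 FPKM, NKX2-5 at 30.9 and 41.4 FPKM, GATA6 at 19.7 and 26.00 FPKM, GATA4 at 24.2 and 11.8 FPKM and HAND2 at 13.4 and 13.9 FPKM. MSX1 was at 27.5 and 22.2 FPKM, and MSX2, the gene deleted in the other libraries of the series, at 3.64 and 1.44 FPKM. HAND1, which the growth protocol of the labels mentions as overexpressed in some cells, was at 2.32 and 1.14 FPKM, in the lower part of the list.

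Mesenchymal and smooth muscle genes were expressed in 19 of 31 cases, a share near the 58.6% of all protein-coding genes. Aside from VIM and THY1, the highest were S100A4 at 209.6 and 370.5 FPKM, RGS5, a gene of pericytes, at 259 and 310.2 FPKM, FN1, fibronectin, at 133 and 171 FPKM and COL1A2 at 144 and 148 FPKM. COL1A1 was at 27.7 and 55.9 FPKM, COL3A1 at 32.9 and 51.1 FPKM and the smooth muscle actin gene ACTA2 at 53.9 and 45.7 FPKM. PDGFRB, the receptor that defines pericytes, was at 0.948 and 2.102 FPKM, PDGFRA at 2.63 and 0.845 FPKM, DCN at 0.164 and 0.355 FPKM, LUM at 0.464 and 0.5 FPKM, MYH11 at 0.0126 and 0 FPKM and the heart muscle gene TNNT2 at 0.134 and 0.142 FPKM. Collagen genes were thus present while the receptors and fibroblast proteoglycans of the list were under or near 1 FPKM. The part of other cells in these levels was not tested.

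Genes of the starting cells were mostly under the cut-off. Of 24 pluripotency genes, 7 were expressed. NANOG was at 0.0785 and 0 FPKM, SOX2 at 0.128 and 0.0196 FPKM and POU5F1 at 4.36 and 0.869 FPKM. LIN28A, an RNA-binding protein of early development, was at 33.97 and 50.6 FPKM, the DNA methyltransferase DNMT3B at 29.8 and 37.2 FPKM, DPPA4 at 24.6 and 22.6 FPKM, SALL4 at 16.8 and 14.5 FPKM and LIN28B at 11.3 and 13.4 FPKM. NANOG and SOX2 were thus at or near 0 in both libraries, and POU5F1 was above the cut-off in replicate 1 and just under it in replicate 2. LIN28A, DNMT3B, DPPA4, SALL4 and LIN28B lay well above the cut-off.

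Among the lists of other germ layers, endoderm genes were expressed more often than epithelial, neural and trophoblast genes. Of 24 endoderm genes, 14 were expressed, a share near the 58.6% of all protein-coding genes. The median over the list was 2.91 and 3.69 FPKM. The expressed genes included the factor SOX17 that arterial endothelium also uses. APOA2 was at 167 and 43.3 FPKM and ALB at 20.7 and 44.8 FPKM, and the fibrinogen genes FGG at 4.79 and 11.8 FPKM, FGB at 3.17 and 6.53 FPKM and FGA at 2.43 and 5.72 FPKM encode further plasma proteins of liver. Of the factors in this list, several were under the cut-off, with FOXA2 at 0.624 and 0.248 FPKM, HNF4A at 0.342 and 0.0789 FPKM and FOXA1 at 0.189 and 0.0862 FPKM. AFP, alpha-fetoprotein, was at 5.24 and 0.422 FPKM. GATA4 and GATA6, given above, and HHEX at 91.9 and 123 FPKM are factors that endoderm shares with mesoderm or endothelium, and all 3 were expressed. The source of the plasma protein transcripts was not tested.

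Of 23 epithelial genes, 9 were expressed, led by CLDN7 at 83.3 and 65.9 FPKM, KRT8 at 70.9 and 65.9 FPKM, KRT18 at 61.6 and 51.3 FPKM and SPINT2 at 43.3 and 51.6 FPKM. The defining genes of epithelium were low, with EPCAM at 2.38 and 1.13 FPKM, CDH1 at 0.92 and 0.158 FPKM and ESRP1 at 0.254 and 0.656 FPKM, and KRT14, KRT7 and OVOL1 were listed at 0. Of 23 neural genes 3 were expressed, TUBB3 at 76.5 and 242 FPKM, NES at 48.9 and 84.1 FPKM and NCAM1 at 8.31 and 5.26 FPKM. SOX1, DCX, NEUROD1, SIX3 and EN1 were listed at 0 in both libraries. Of 18 trophoblast and amnion genes, only IGFBP3 at 9.901 and 8.83 FPKM and ISL1 at 3.29 and 1.55 FPKM were expressed, and both are also genes of vessels or of mesoderm.

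Of 25 genes of VEGF, angiopoietin and FGF signaling, 22 were expressed, and the highest were receptors, led by KDR and TIE1. FLT1 was at 276 and 243 FPKM, the co-receptor NRP1 at 214 and 162 FPKM and the angiopoietin receptor TEK at 126 and 96.6 FPKM. FGFR1 was the leading FGF receptor at 215 and 166 FPKM, against FGFR3 at 4.73 and 9.93 FPKM, FGFR4 at 6.43 and 2.11 FPKM and FGFR2 at 1.55 and 1.34 FPKM. The ligands were lower, with VEGFA at 18.8 and 18.5 FPKM, VEGFB at 25.6 and 18.9 FPKM, ANGPT2 at 5.58 and 4.36 FPKM and VEGFC at 0.481 and 0.393 FPKM. DUSP6, a feedback phosphatase of the FGF pathway, was at 93.1 and 59.2 FPKM.

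Of 42 genes of TGF-beta and BMP signaling, 32 were expressed. The ligand TGFB1 led at 342 and 517 FPKM, above BMP6 at 13.1 and 9.78 FPKM and BMP4 at 23.4 and 7.01 FPKM, and TGFB3 was at 0.0984 and 0.145 FPKM. The endothelial receptors were ACVRL1 at 99.7 and 79.00 FPKM and its co-receptor ENG at 90.9 and 90.95 FPKM, followed by TGFBR2 at 24.98 and 20.98 FPKM and TGFBR1 at 9.11 and 12.2 FPKM. Among the signal transducers SMAD4 was at 32.2 and 36.8 FPKM, SMAD2 at 30.6 and 32.7 FPKM, SMAD5 at 15.9 and 13.7 FPKM and SMAD1 at 13.7 and 14.6 FPKM. The inhibitory SMAD6 and the BMP target ID1, both given above, exceeded every transducer, and the inhibitory SMAD7 was at 31.3 and 21.3 FPKM. The antagonist NOG was at 1.68 and 0.217 FPKM and GREM1 was listed at 0.

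Glycolytic genes were expressed in 25 of 26 cases, with a median over all 26 of 79.0 and 84.6 FPKM. GAPDH was at 1869 and 2336 FPKM, ENO1 at 627 and 799.95 FPKM, ALDOA at 515 and 702 FPKM and PKM at 381 and 499 FPKM. SLC2A3 exceeded the other glucose transporter of the list, SLC2A1, at 181 and 240.4 against 58.97 and 64.7 FPKM. The hypoxia target CA9 was the 1 gene under the cut-off at 0.328 and 0.107 FPKM. Cell cycle genes were expressed in 33 of 36 cases, with a median over all 36 of 14.9 and 25.9 FPKM. MKI67, the proliferation antigen, was at 4.83 and 8.14 FPKM.

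The 2 libraries were close over most genes. Across the 12812 genes Pearson's r of the log2 levels was 0.957 and Spearman's rho 0.951, which describes genes of 2 libraries and not independent samples. The median ratio of replicate 2 to replicate 1 was 0.993, and the median size of the difference was 1.25-fold. Replicate 2 exceeded replicate 1 by over 2-fold for 450 genes (3.51%) and replicate 1 exceeded replicate 2 by over 2-fold for 727 genes (5.67%). With each library scaled to the same sum (TPM), 14081 genes reached the cut-off, of which 474 were over 2-fold higher in replicate 2 and 1204 in replicate 1. With 1 library on each side there is no replicate check of such a difference and no p-value. The share depended on level, since 10.2% of the 3203 lowest genes but 1.37% of the 3203 highest were over 2-fold higher in replicate 1. The corresponding shares for replicate 2 were 4.78% and 2.68%.

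**Figure D4:**
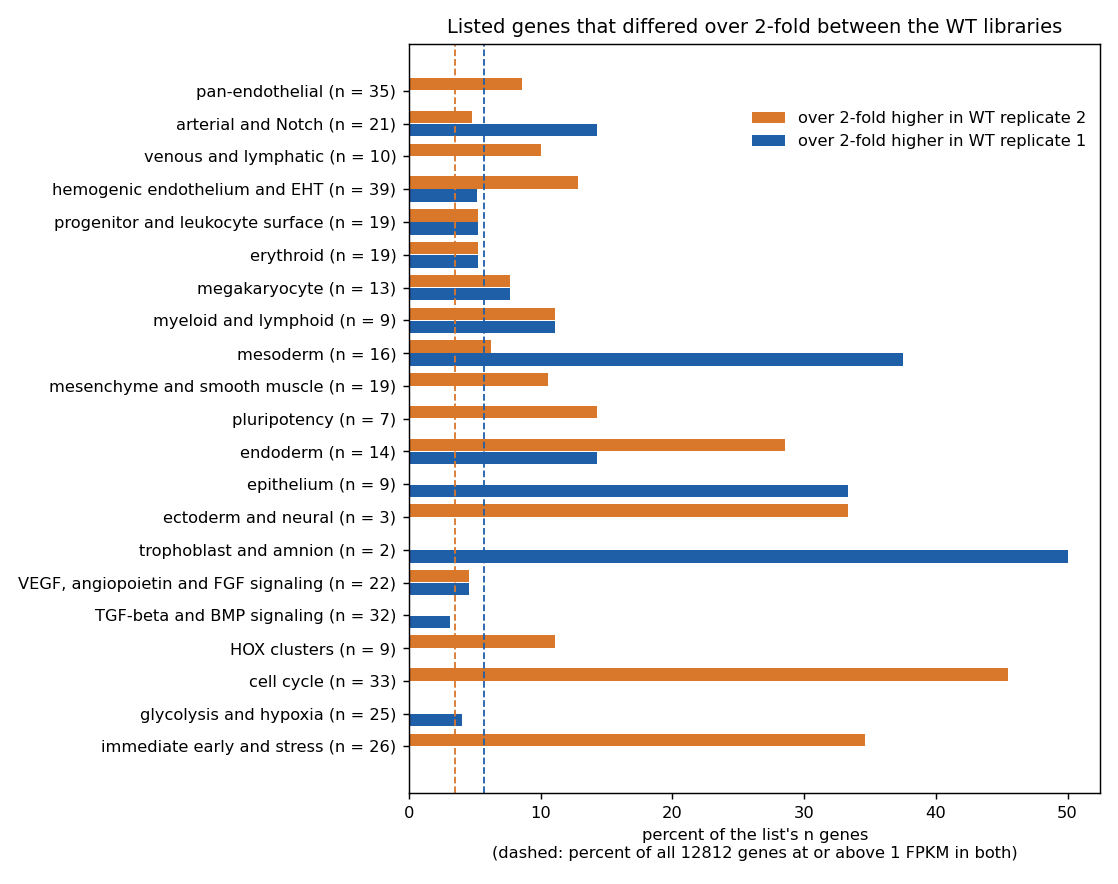
Percent of each list's expressed genes (rows, n in brackets) that were over 2-fold higher in WT replicate 2 (orange) or in WT replicate 1 (blue), with the same share over all 12812 genes as dashed lines (3.51% and 5.67%). The cell cycle and immediate early lists reach 45.5% and 34.6% for replicate 2, and the lists with 2 or 3 genes move in large steps.

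Cell cycle genes were higher in replicate 2. Of the 33 expressed, 15 were over 2-fold higher in replicate 2 and 0 in replicate 1, against 3.51% and 5.67% of all expressed genes, and 28 of the 33 were higher in replicate 2 by any amount. PLK1, a mitotic kinase, was at 15.01 and 54.5 FPKM, CDC20, an activator of the anaphase complex, at 14.9 and 50.8 FPKM, the replication helicase subunit MCM2 at 24.4 and 61.7 FPKM and the cyclin CCND1 at 48.2 and 136 FPKM. The inhibitor CDKN1A went the other way, at 98.7 and 58.4 FPKM. PLK1, CDC20, MCM2 and CCND1 each passed 2-fold between 2 libraries that carry the same label.

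Immediate early and stress genes were also higher in replicate 2, where 9 of 26 passed 2-fold, against 3.51% of all expressed genes, and 0 did so in replicate 1, against 5.67%. FOS was at 33.6 and 81.1 FPKM, FOSB at 13.96 and 46.99 FPKM, the flow-responsive factor KLF2 at 37.1 and 91.3 FPKM and the endoplasmic reticulum chaperone HSPA5 at 99.7 and 297 FPKM. JUN at 91.6 and 109 FPKM and IER2 at 198 and 196 FPKM differed little. HSPA1A and HSPA1B, near-identical copies of an inducible heat shock gene, were both listed at 0 in both libraries.

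The shares of all expressed genes past 2-fold, 3.51% for replicate 2 and 5.67% for replicate 1, are the background for the counts of the other lists. Of the 21 arterial and NOTCH genes expressed, 19 were higher in replicate 1 by any amount, against 6519 of all 12812 genes, and 3 of the 21 passed 2-fold (14.3%), GJA5, CXCR4 and HES4. HES1 was the 1 arterial or NOTCH gene that was over 2-fold higher in replicate 2. Of 16 mesoderm genes 6 were over 2-fold higher in replicate 1 (37.5%), among them BMP4 and FOXC2 at 9.58 and 1.52 FPKM. Among pan-endothelial genes 3 of 35 were over 2-fold higher in replicate 2 (8.57%), CLEC14A at 96.5 and 249.5 FPKM, MCAM at 52.4 and 138 FPKM and PODXL at 43.6 and 134 FPKM, and 0 in replicate 1. Of 39 hemogenic genes 5 passed 2-fold in replicate 2 (12.8%), RUNX1, CBFA2T3, ADGRG1, GFI1B and ETV2. In replicate 1 it was 2 of 39 (5.13%), BMP4 and KIT, a share near the background. Of 14 endoderm genes, 4 were over 2-fold higher in replicate 2 (28.6%) and 2 in replicate 1 (14.3%). Of 9 epithelial genes, 3 were over 2-fold higher in replicate 1 (33.3%) and 0 in replicate 2. Shares of the erythroid, the VEGF, angiopoietin and FGF, and the TGF-beta and BMP lists were within a few percentage points of the background. These counts describe the 2 libraries, and whether they follow culture, sorting or library preparation cannot be told apart.

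Among the 7044 genes whose mean reached 10 FPKM, the 10 with the lowest ratio of replicate 2 to replicate 1 were of several classes. RN7SK, a small nuclear RNA that regulates transcription elongation, was at 284 and 2.01 FPKM. The immunoglobulin chains IGHG1 at 35.3 and 2.77 FPKM, IGLC2 at 24.8 and 2.04 FPKM and IGKC at 48.3 and 4.48 FPKM were also among them. The other genes were PRND at 29.99 and 1.84 FPKM, FHIT at 52.4 and 5.79 FPKM, the chemokine receptor ACKR3 at 31.4 and 4.17 FPKM, FGF11 at 17.9 and 2.91 FPKM, EFNA3 at 26.8 and 4.77 FPKM and the pseudogene HMGN2P15 at 26.8 and 5.59 FPKM. At the other end stood the non-coding LINC02356 at 1.71 and 23.9 FPKM, ARHGAP33 at 10.5 and 103 FPKM, SUSD4 at 2.27 and 20.9 FPKM, the metalloprotease gene ADAM12 at 4.42 and 30.9 FPKM and MBD5 at 12.3 and 80.1 FPKM. CFAP161, ST8SIA4, the WNT receptor FZD10 at 3.601 and 21.3 FPKM, SNRPGP10 and CRYBB1 completed the 10. Genes in these groups were chosen for the size of their difference.

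The cut-off of 1 FPKM divided genes of nearly the same level. The genes just inside it were C1QTNF12 at 1.43 and 1.001 FPKM, SOS1-IT1 at 2.23 and 1.002 FPKM and TMEM47 at 1.95 and 1.002 FPKM. Those just outside were AL590627.1 at 1.503 and 0.999 FPKM, LINC01534 at 0.999 and 2.004 FPKM and ZNF169 at 2.27 and 0.999 FPKM. A further 1044 genes reached 1 FPKM in replicate 1 only and 631 in replicate 2 only, and 30576 symbols were listed at 0 in both.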

How the data were processed

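The 2 WT libraries were RNA-seq libraries of total RNA, made per the labels with the Illumina TruSeq kit. The authors deposited 1 table of FPKM values per gene symbol and library. The submitters' processing notes name BWA, Bowtie, RSEM and hg19, while the design text names TopHat and Cufflinks, and versions, annotation, filters and strand are not given in the sources used here. The 4 columns of MSX2-/- libraries were not used, because their clone numbers match no sample label. Of the rows, 58364 held values and 1 held headings. Where a symbol stood on several rows (342 symbols), the one of highest mean was kept. Symbols were matched to GENCODE 29 (97.0%) for gene classes, and promoters, which have the build GRCh38.p14, were matched by RefSeq symbol or synonym.

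Levels were read as FPKM in each library, and no test was made. A ratio over 2-fold counted as different. The rule was tried on simulated libraries that differed less from each other than the 2 WT libraries, where the median absolute log2 ratio was 0.323. That trial therefore cannot tell how often the rule errs in these data. The table gives no read numbers, so the depth is unknown and no interval or floor is given. Ratios of the 1757 genes under 0.1 FPKM in both libraries clustered where replicate 2 was 1.09 times as deep as replicate 1. Named genes were the 4 markers, the 25 highest genes and factors, the 6 highest of each list and its genes under 1 FPKM, the extremes of the replicate ratio and the genes nearest the cut-off. Other genes of the lists were named after their values were seen, and not every gene the rule covers is named, since results of some single genes are withheld and not reported here. The lists and their members were written with earlier results of these data known. Calculations used Python 3.11.15, numpy 2.4.6 and pandas 2.3.3, and figures matplotlib 3.10.9.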

Additional observations from a re-analysis of the deposited data

How the results depend on the processing

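The number of expressed genes stayed within 1.5-fold of 12812 under every alternative run, from 8747 at a cut-off of 5 FPKM to 14396 at 0.5 FPKM. With 1 library left out it was 13443 (without replicate 1) and 13856 (without replicate 2). The counts past 2-fold were less stable. Genes over 2-fold higher in replicate 2 numbered 199 at a cut-off of 5 FPKM and 287 with 1 FPKM added to both values, against 450. Genes over 2-fold higher in replicate 1 numbered 212 at 5 FPKM and 421 with 1 FPKM added, and 1204 on the TPM scale, which admits 14081 genes, against 727. At 5 FPKM the 2 directions were nearly even (2.28% and 2.42%), so the excess in replicate 1 was among genes under 5 FPKM in a library. The share of the 25 highest genes was 13.5% of summed FPKM, 11.9% among nuclear protein-coding genes, and between 13.5% and 13.6% with 1 library left out. Of the 21 lists, the number expressed moved by more than 1.5-fold for 0 at 0.5 FPKM and for 6 at 5 FPKM, and summing the rows of a symbol moved 0 list medians beyond the spread between libraries. The medians of 9 lists without replicate 1, and of 6 without replicate 2, moved beyond that spread. No paired analysis was possible because the result comes from 1 group and no test.

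The limits of these values are that 2 libraries give 1 difference per gene, that the depth is unknown, that values near 1 FPKM move most between libraries, and that copies and overlapping genes cannot be separated.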

Other observations

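Basement membrane genes, in a list written after the data were seen, were expressed in 14 of 14 cases, 8 of them at 100 FPKM or more in both libraries. Perlecan, HSPG2, was at 775 and 529 FPKM, the collagen IV genes COL4A2 at 381 and 381 FPKM and COL4A1 at 209.99 and 203 FPKM, and agrin, AGRN, at 320.01 and 234 FPKM. Among laminins LAMB2 was at 144 and 129 FPKM, LAMA5 at 127 and 76.02 FPKM and LAMA4 at 14.1 and 3.07 FPKM. In an equally late list of integrins and tetraspanins, 16 of 16 were expressed, with the fibronectin receptor chain ITGA5 at 296 and 256 FPKM, its partner ITGB1 at 213 and 239.9 FPKM and ITGA4, a chain of blood cells, at 2.66 and 3.28 FPKM.

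Of 22 secreted vascular regulators in a list of the same kind, 16 were expressed. RNASE1, an endothelial ribonuclease, was at 632 and 489 FPKM, the clotting inhibitor TFPI at 471 and 423 FPKM and HAPLN1, which links hyaluronan, at 415 and 669 FPKM. TFPI2 was at 26.8 and 111 FPKM and KITLG, the stem cell factor gene, at 6.24 and 19.4 FPKM. CXCL12 at 0.649 and 0.407 FPKM, CCL2 at 1.01 and 0.495 FPKM and CXCL8 at 0.134 and 0 FPKM were near or under the cut-off. The WNT list had 23 of 30 expressed, led by CTNNB1 at 173 and 249.9 FPKM, with the receptors FZD4 at 19.1 and 15.04 FPKM and FZD8 at 23.9 and 8.22 FPKM. The ligands WNT3A and WNT8A were listed at 0. Of the 23 WNT genes expressed, 5 were over 2-fold higher in replicate 1 (21.7%), against 5.67% of all expressed genes. In replicate 2 it was 1 of 23 (4.35%), against 3.51%. Of 14 genes of MHC class I and II, 11 were expressed, with B2M, the class I light chain, at 644 and 655 FPKM and CD74, the class II invariant chain, at 24.98 and 19.1 FPKM. The class II regulator CIITA was at 0.352 and 0.0573 FPKM.

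Of 15 imprinted genes 10 were expressed, beside 58.6% of all protein-coding genes. IGF2 was at 44.4 and 58.4 FPKM while H19, from the same locus, was at 0.364 and 1.27 FPKM, and DLK1 was at 20.9 and 22.5 FPKM while MEG3 was at 0.11 and 0.0512 FPKM. PEG3 was at 0.0107 and 0 FPKM and SNRPN at 153 and 148 FPKM.

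A list of 11 immunoglobulin genes was written because IGKC, IGHG1 and IGLC2 were among the genes with the lowest ratio of replicate 2 to replicate 1, so its direction is no independent observation. These 3 were the members expressed in both libraries. IGHG2 was at 3.33 and 0.208 FPKM, IGLC3 at 8.75 and 0 FPKM, IGLC1 at 3.39 and 0 FPKM and IGHG4 at 1.69 and 0.155 FPKM. The B-cell surface gene MS4A1 was listed at 0 in both libraries, and JCHAIN, the joining chain of plasma cells, was at 0.259 and 0.239 FPKM. The source of these transcripts was not tested.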
